A study of Mus musculus with 21 samples.

Results

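The change of cochlear microRNAs (miRNAs) between late embryonic life and the onset of hearing was measured in 6 of the 21 miRNA-seq libraries of the study, 2 from embryonic day 16 (E16) and 4 from postnatal day 16 (P16). These are all libraries that the labels give for the cochlea at these ages. The tissue of both groups was the sensory epithelium of the inner ear, dissected from wild-type (WT) C57BL/6JOlaHsd mice of both sexes that had received no treatment. In both groups the Direct-zol kit served for RNA isolation and the SMARTer smRNA-Seq kit for the libraries. The methods describe repeats of each stage as biological and the tissue as pooled from several mice, but not which animals went into which library, so that p-values measure the spread between these libraries. Of the 1647 mature miRNAs listed, 823 exceeded 1 CPM (counts scaled to the size of the library) in at least 2 libraries of E16 or of P16 and were tested. A further 372 were counted but stayed below this limit, and 452 had no count in the 6 libraries. The cochlea of newborn mice (P0), with 4 libraries of the same kind, entered the fit and is given where it shows when a change occurred.

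A miRNA is cut from a hairpin precursor, which can release a mature strand from its 5′ arm (5p) and from its 3′ arm (3p). The seed, bases 2 to 8 of the mature strand, pairs with target mRNAs, and miRNAs with the same seed form a family with largely shared predicted targets. Hairpins that lie close together are often transcribed as 1 precursor, so that members of a genomic cluster can rise and fall together, and many hairpins lie within a host gene. At E16 the cells of the sensory epithelium have left or are leaving the cell cycle, and at P16 the mouse hears. The sequences shown are examples from families described below, and some larger groups of changes, such as the imprinted miRNAs, are not shown. Sequences are from RefSeq for GRCm38.p6, written 5′ to 3′ with the seed in capitals.

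The miRNAs of the miR-17-92 cluster and its paralogs, known for their role in cell proliferation, mostly fell. Those listed first share 1 seed, and miR-25-3p and miR-92a-3p share another.
miR-17-5p: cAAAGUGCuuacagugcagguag
miR-20a-5p: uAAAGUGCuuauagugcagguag
miR-20b-5p: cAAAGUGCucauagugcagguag
miR-93-5p: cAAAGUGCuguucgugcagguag
miR-106b-5p: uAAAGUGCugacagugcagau
miR-25-3p: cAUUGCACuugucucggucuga
miR-92a-3p: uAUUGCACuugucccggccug
The let-7 family, a classical set of miRNAs that accumulate as tissues mature, was higher at P16. Its members differ in few bases outside the seed.
let-7b-5p: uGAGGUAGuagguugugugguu
let-7c-5p: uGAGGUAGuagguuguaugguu
let-7d-5p: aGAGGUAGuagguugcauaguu
let-7g-5p: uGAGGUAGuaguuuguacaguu
In the next sets, miRNAs from different loci have the same seed but moved in opposite directions. miR-15b-5p and miR-322-5p fell and miR-195a-5p and miR-497a-5p rose, while miR-351-5p fell and the miR-125 strands rose.
miR-15b-5p: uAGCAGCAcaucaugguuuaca
miR-322-5p: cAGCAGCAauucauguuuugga
miR-195a-5p: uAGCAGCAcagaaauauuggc
miR-497a-5p: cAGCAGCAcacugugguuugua
miR-351-5p: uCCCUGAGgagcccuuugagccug
miR-125a-5p: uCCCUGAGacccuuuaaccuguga
miR-125b-5p: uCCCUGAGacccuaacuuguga
The hair-cell miRNAs of the miR-183 cluster have related but not identical seeds. miR-335-5p and miR-338-3p are shown as abundant or large single changes, downward and upward respectively.
miR-183-5p: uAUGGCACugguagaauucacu
miR-96-5p: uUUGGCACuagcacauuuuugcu
miR-182-5p: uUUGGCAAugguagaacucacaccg
miR-335-5p: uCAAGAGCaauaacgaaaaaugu
miR-338-3p: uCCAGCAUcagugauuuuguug

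The E16 libraries held 275971 and 447419 counts and the P16 libraries 199418, 198434, 144207 and 124400, a mean 2.17 times as high at E16. One count stood for 1.76 to 2.67 normalized CPM at E16 and for 5.51 to 8.12 at P16, and a count of 0 allows up to 3 counts, which covers counting error only. Replicate 2 of P16 stood apart from the other libraries. Its 10 most abundant miRNAs took 79.0% of its counts, against 65.4% to 66.7% in the other P16 libraries and 53.3% to 55.1% at E16. No library was a copy of another, since the counts of each pair of replicates differed by more than sampling noise (chi-square per degree of freedom of 7.76 to 46.0, and 91.9 to 134 for pairs with P16 replicate 2). The miRNA markers of hair cells were high at both ages. Their sum was 51366 to 56655 CPM at E16 and 14432 to 37902 at P16, with none of the 3 at 0. The mesenchymal miRNA miR-214-3p was also high, at 44086 to 45961 CPM at E16 and 9300.1 to 13725 at P16. Because each library held the RNA of a whole tissue, fewer cells of a type and less RNA per cell cannot be told apart.

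After TMM normalization, P16 was compared with E16 by the quasi-likelihood F test of edgeR. Differentially expressed (DE) here means that the FDR, the Benjamini-Hochberg adjusted p over the 823 miRNAs, was under 0.05, the fold change exceeded 1.5 and no P16 library overlapped an E16 library. By this definition 270 miRNAs were DE, 32.8% of those tested. Of these, 97 were induced at P16 (11.8%) and 173 were repressed (21%). Among the 290 miRNAs whose mean reached 100 CPM in either group, 64 were induced and 123 repressed, and among the 100 that reached 1000 CPM, 25 and 41. The groups did not overlap for 408 miRNAs (49.6%), whereas 46 miRNAs passed the FDR and the fold change but overlapped. For 12 of these 46, all of them higher at P16, the overlap was due to P16 replicate 2 alone. Without this library 276 miRNAs were DE, 113 induced and 163 repressed. The E16 libraries weighed more. Without E16 replicate 2, 168 miRNAs were DE (56 induced, 112 repressed), and without E16 replicate 1, 205 (64 induced, 141 repressed), where the lone E16 library was assumed to vary like the other groups.

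The exact permutation test of 2 libraries against 4 cannot give a two-sided p below 0.0667 for a single miRNA, so that the calls rest on the model across all miRNAs. The balance of rises and falls depended on the scaling. The median log2 fold change of all tested miRNAs was -0.13 with TMM and -0.63 with library totals, a shift of 0.50, and library totals gave 72 induced and 233 repressed miRNAs. For 54 repressed miRNAs every P16 library held 3 counts or fewer. Computed against 3 counts per library, the E16 level was more than 1.5-fold higher for 33 of them and 1.5-fold or less for the others. In the other direction, the E16 libraries of 19 induced miRNAs held 3 counts or fewer, and all 19 were more than 1.5-fold above 3 counts per library at P16. For the named miRNAs among these, the ratio of the pooled counts, scaled to the normalized library sizes, is given with its exact 95% interval in parentheses, which covers counting error only. List medians rest in part on such fitted values. With each miRNA at this floor set to its bound against 3 counts per library, or to 0 where that bound was under 1 or both groups were at the floor, the median of all 823 was 0.

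**Figure D1:**
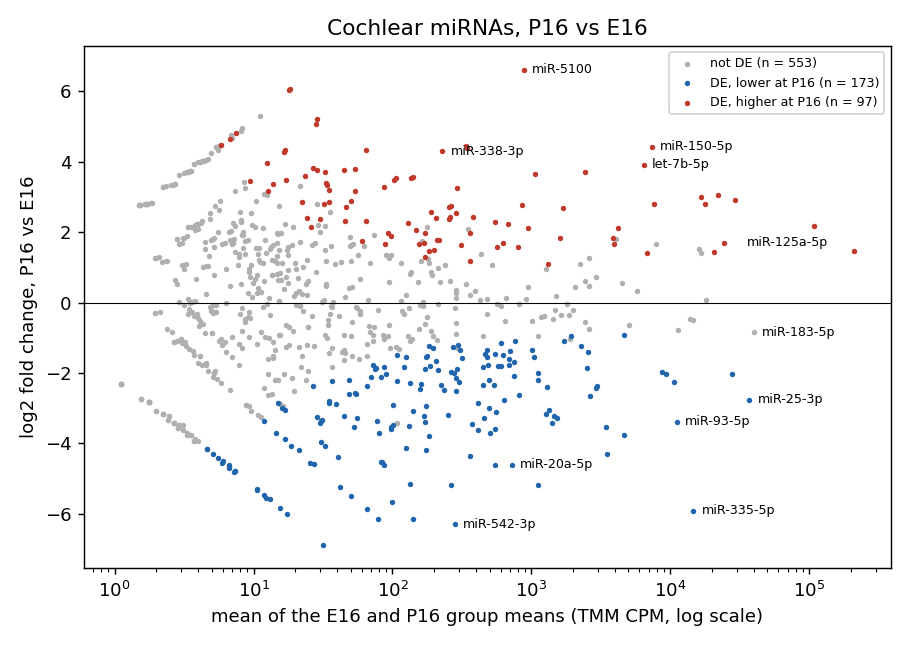
Log2 fold change (P16 vs E16, y axis) of the 823 tested cochlear miRNAs against the mean of both group means (TMM CPM, log scale, x axis). Each point is 1 miRNA, coloured by whether it was DE and in which direction; 97 were induced and 173 repressed, and the straight rows of points at the lower left are miRNAs with few counts.

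Base composition moved with the change. A RefSeq sequence was found for 699 of the 823 tested miRNAs (84.9%). The median GC content was 56.5% for the 77 induced miRNAs among them, 45.5% for the 159 repressed and 52.4% for the 463 that were not DE. Of the 99 miRNAs under 40% GC, 4 were induced and 38 repressed, and of the 176 with 60% or more, 24 and 19. The Pearson correlation of GC content with the log2 fold change across miRNAs was 0.30. It was 0.46 for P0 vs E16 and -0.13 for P16 vs P0, and miRNAs are not independent replicates. In a fit of these 699 with an offset for GC content per library, chosen after seeing the data, 99 were induced and 116 repressed, beside 80 and 158 without the offset. The miR-17-92 list then held 13 repressed members of 21 and the miR-322 cluster 9 of 12, with medians of -2.32 and -2.88. The let-7 5p strands were induced in 9 of 9, and 13 of 49 strands of the miR-379-410 cluster were repressed, beside 20 without the offset.

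**Figure D2:**
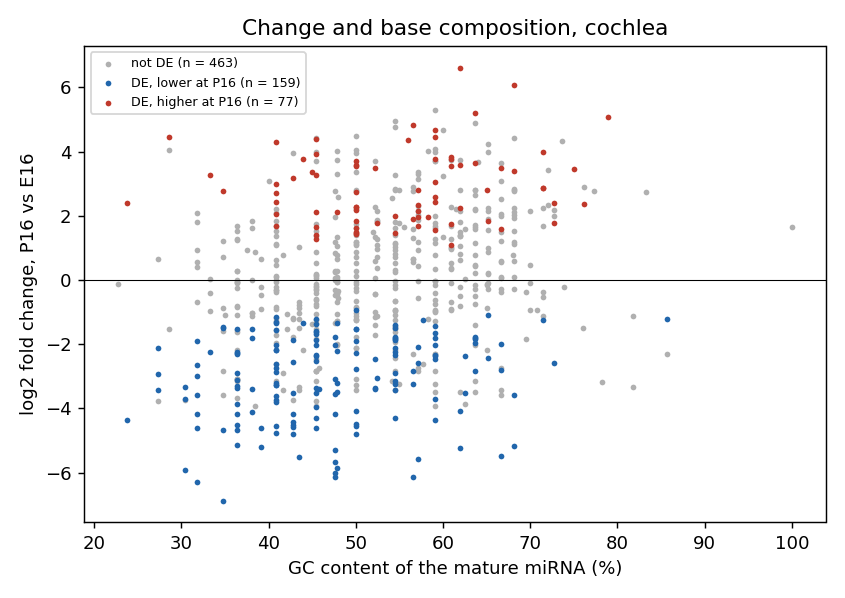
Log2 fold change (P16 vs E16, y axis) against the GC content (%, x axis) of the 699 tested miRNAs with a RefSeq sequence; each point is 1 miRNA, coloured by its call. Repressed miRNAs had a median GC content of 45.5% and induced ones of 56.5%.

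The miRNAs of the miR-17-92 cluster and of its paralogs were repressed at P16 in 17 of 22 tested cases, and none was induced. Of all tested miRNAs, 21% were repressed and 11.8% induced. The median log2 fold change of the list was -2.66, or -1.95 with bounds, beside -0.13 for all tested miRNAs. Under the 10 other settings tried the count of repressed members ranged from 12 to 18, with 15 without P16 replicate 2, and the median stayed negative. The cluster itself lies on the plus strand of chromosome 14 (GRCm38, chr14:115043671-115044506) in Mir17hg, a non-coding transcript that serves as its precursor, and 8 of its 9 tested strands were DE. A second cluster, chr5:138165321-138165818 on the minus strand, lies within Mcm7, which encodes a subunit of the helicase that unwinds DNA for replication, and 5 of its 6 tested strands were DE. The third, on the X chromosome (chrX:52741693-52742567, minus strand), was low, and 2 of 4 tested strands were DE.

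The most abundant member, miR-25-3p of the Mcm7 locus, had 65651 and 63240.3 CPM in the E16 libraries and 15160.0, 5297, 8520.2 and 9080.3 in the P16 libraries. Both E16 values were far above the highest P16 value, that of replicate 1 (log2 fold change -2.76, standard error 0.38, edgeR FDR 1.08e-11). Its neighbour miR-93-5p fell from 23571 and 17114 CPM to 2082, 909, 2405 and 2402, with the lowest value again in P16 replicate 2 (log2 fold change -3.38, standard error 0.38, edgeR FDR 4.73e-17). The groups of both miRNAs were far apart. From the chromosome 14 cluster, miR-20a-5p had 994 and 1786 CPM at E16 and 99.1, 6.73, 45.9 and 73.0 at P16 (log2 fold change -4.60, standard error 0.47, edgeR FDR 4.67e-20), so that it was nearly lost from P16 replicate 2, with 1 count. The levels of miR-17-5p, which has the same seed, were 217 and 159 CPM at E16 and 22.0, 13.5, 19.7 and 8.11 at P16 (log2 fold change -3.48, standard error 0.71, edgeR FDR 8.17e-06). A deeper loss was seen for miR-19b-3p, at 511 and 514 CPM and 16.5, 0, 0 and 40.6 (log2 fold change -5.20, standard error 0.64, edgeR FDR 3.97e-14). By contrast miR-92a-3p kept more of its level, with 1165 and 1263 CPM at E16 and 215, 404, 282 and 235 at P16 (log2 fold change -2.10, standard error 0.41, edgeR FDR 2.78e-06). Both miR-19b-3p and miR-92a-3p are made from the chromosome 14 cluster and from its X-linked paralog. Low counts limited miR-20b-5p, which fell from 102 and 58.1 CPM to 16.5, 0, 13.1 and 40.6, at most 5 counts per library (FDR 0.0228).

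Seen by seed rather than by locus, 5 of the 6 tested miRNAs with the seed AAAGUGC were repressed, with a median log2 fold change of -2.97 and the sixth had at most 3 counts in each library. Of the 5 tested miRNAs with the seed AUUGCAC, 4 were repressed. One of them, miR-92b-3p, comes from a locus outside these clusters, had 13753 and 14188 CPM at E16 and 2450.5, 5452, 3218 and 3140.4 at P16, and was at 22561 CPM at P0, so that the fall came after birth (log2 fold change -1.97, standard error 0.37, edgeR FDR 1.65e-06). Over the 22 tested members of the 3 clusters, the median log2 fold change was -2.20 for P0 vs E16 and -0.98 for P16 vs P0, beside -0.18 and 0.20 for all tested miRNAs. These comparisons share libraries with that of P16 vs E16.

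**Figure D3:**
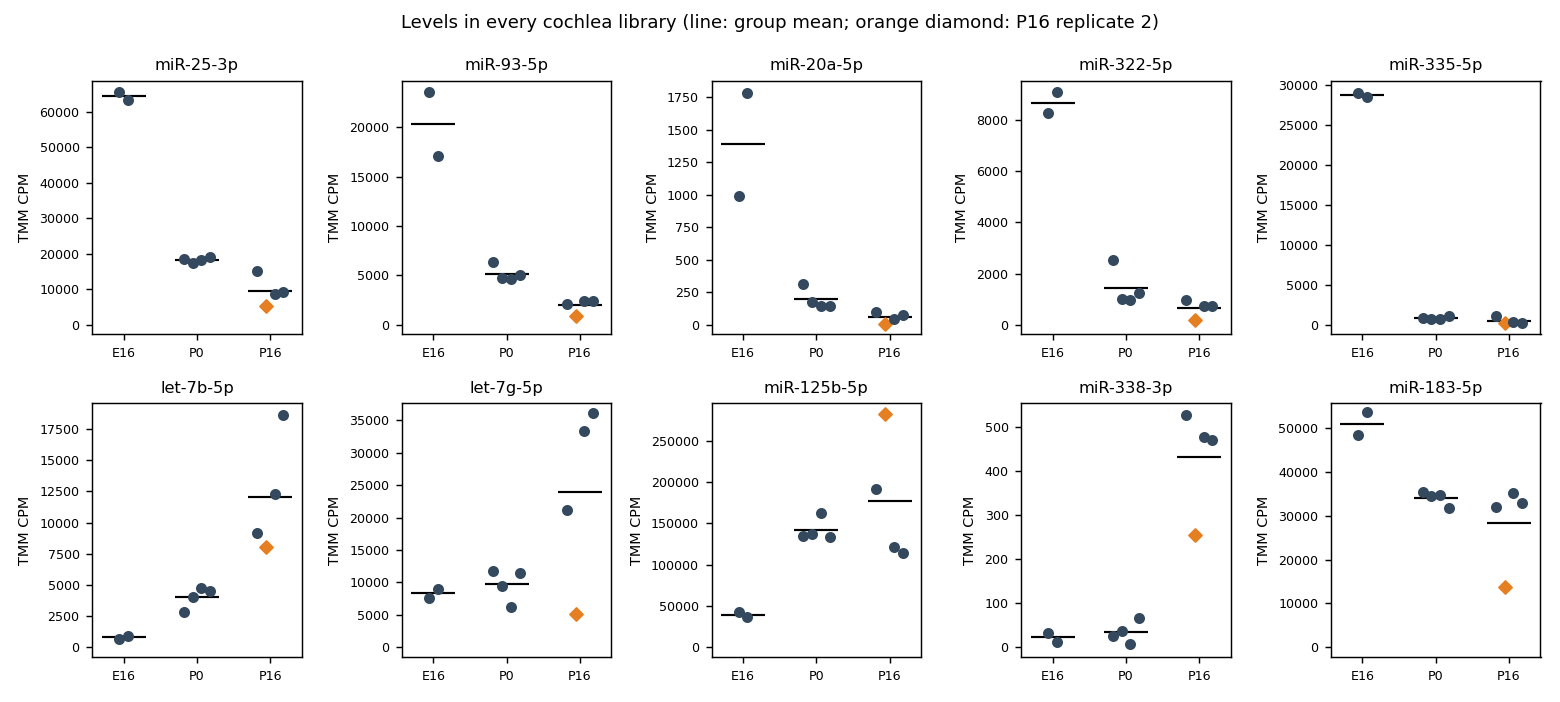
TMM CPM (y axis, linear) in each cochlea library at E16 (2 libraries), P0 (4) and P16 (4) for miRNAs of the growth-linked clusters, miR-335-5p, 2 let-7 strands, miR-125b-5p, miR-338-3p and miR-183-5p; points are libraries and lines are group means. P16 replicate 2, the orange diamond, was the highest P16 library for miR-125b-5p. It was the lowest for all others shown except miR-335-5p.

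A second growth-linked group was the X-linked cluster of miR-322, miR-503, miR-351, miR-542 and miR-450 (chrX:53047997-53054349, minus strand). It was repressed in 10 of 12 tested strands, beside 21% of all tested miRNAs, and none was induced. The median was -3.46, or -2.30 with bounds. miR-322 and miR-503 are known to target cyclins and other drivers of the cell cycle. Its main product miR-322-5p had 8287 and 9087 CPM at E16 and 958, 168, 727 and 714 at P16 (log2 fold change -3.76, standard error 0.39, edgeR FDR 1.03e-19). P16 replicate 2 was the lowest here too, but all P16 libraries were well below both E16 libraries. Its 3p arm, miR-322-3p, had 171 and 218 CPM at E16 and 5.51, 6.73, 0 and 0 at P16, at most 1 count per library, so that the E16 level was 60.5 times (16.5 to 502.96) as high. miR-542-3p had 484 and 624 CPM at E16 and at most 3 counts per library at P16, and the E16 level was 86.0 times (33.4 to 317) as high. miR-503-5p had 270.0 and 287 CPM at E16 and at most 2 counts per library at P16, and the E16 level was 84.9 times (23.3 to 705) as high. The other arms of these hairpins fell less, miR-542-5p by 1.84 (FDR 0.00599) and miR-503-3p by 1.91 (FDR 0.000636) on the log2 scale. miR-351-5p stayed at its E16 level until birth, with 4239.5 and 5752 CPM at E16 and 5187 at P0, and had 677, 1461, 779.9 and 958 at P16 (log2 fold change -2.37, standard error 0.38, edgeR FDR 7.40e-09).

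The miR-15/16 family, known to restrain the cell cycle, did not move as a block. The pair miR-15b and miR-16-2, in an intron of Smc4 (chr3:69009772-69009996, plus strand), a gene of the condensin complex that compacts mitotic chromosomes, was repressed in all 3 tested strands. miR-15b-5p had 738 and 2079 CPM at E16, which differed between the libraries, and 198, 242, 275 and 194.8 at P16 (log2 fold change -2.63, standard error 0.41, edgeR FDR 4.34e-09). miR-16-2-3p, the strand that only this locus yields, had 147 and 192 CPM at E16 and was counted at P16 in replicate 1 alone, with 4 counts (log2 fold change -4.62, standard error 0.84, edgeR FDR 5.75e-07). The main strand miR-16-5p, also made from a second locus, had 925 and 1860.5 CPM at E16 and 1063, 424, 1697 and 1055 at P16, and the groups overlapped (log2 fold change -0.39, FDR 0.427).

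The locus of miR-15a on chromosome 14 was low. Its strand miR-15a-3p had 28 and 46 counts at E16 and 2, 0, 0 and 0 at P16 and was repressed (edgeR FDR 0.000205), and the E16 level was 23.8 times (6.36 to 200.2) as high. Strands of another locus rose. miR-497a and miR-195a lie together on chromosome 11 (chr11:70234717-70235135, plus strand), and miR-497a-5p had 29.4 and 58.1 CPM at E16 and 303, 209, 105 and 252 at P16 (log2 fold change 2.28, standard error 0.62, edgeR FDR 0.00146). miR-195a-5p was below the level set for naming and was added after its values had been seen. It had 3 counts in each E16 library and 19, 3, 13 and 5 counts in the P16 libraries (log2 fold change 3.19, standard error 0.97, edgeR FDR 0.00488), and the P16 level was 10.4 times (4.37 to 29.9) as high. Both rises rested on 2 E16 libraries: without replicate 1 the edgeR FDR was 0.101 for miR-497a-5p and 0.0514 for miR-195a-5p, and without replicate 2 that of miR-195a-5p was 0.112. Thus, of the 6 tested miRNAs with the seed AGCAGCA, 2 fell, 2 rose and 2 were not DE. Their summed level was led by miR-322-5p at E16 and by miR-16-5p at P16.

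Opposite directions within 1 seed were also seen for CCCUGAG. miR-125a-5p and miR-125b-5p, known for roles in differentiation, were the most abundant miRNAs at P16. miR-125a-5p had 100708 and 122501 CPM at E16 and 271002, 496932, 227581 and 234148 at P16, with P16 replicate 2 far above the others (log2 fold change 1.46, standard error 0.45, edgeR FDR 0.00565). The call of miR-125a-5p was lost without either E16 library, with an edgeR FDR of 0.142 without replicate 1 and 0.0801 without replicate 2. miR-125b-5p had 42085 and 35939 CPM at E16 and 191694, 283131, 121563 and 114165 at P16 (log2 fold change 2.19, standard error 0.46, edgeR FDR 1.88e-05). At P0 miR-125a-5p had a mean of 334033 CPM, above its P16 mean of 307416. miR-125b-5p had reached most of its P16 level, with a mean of 142232 CPM at P0. miR-351-5p, which shares their seed and was far less abundant, fell as given above. The miR-99 strands encoded near miR-125 were not induced. miR-99b-5p had 16744 and 17609 CPM at E16 and 11470.5, 18134, 10047 and 8902 at P16 with overlapping groups (FDR 0.281), and its other arm miR-99b-3p fell by 2.85 on the log2 scale (FDR 7.07e-09).

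**Figure D4:**
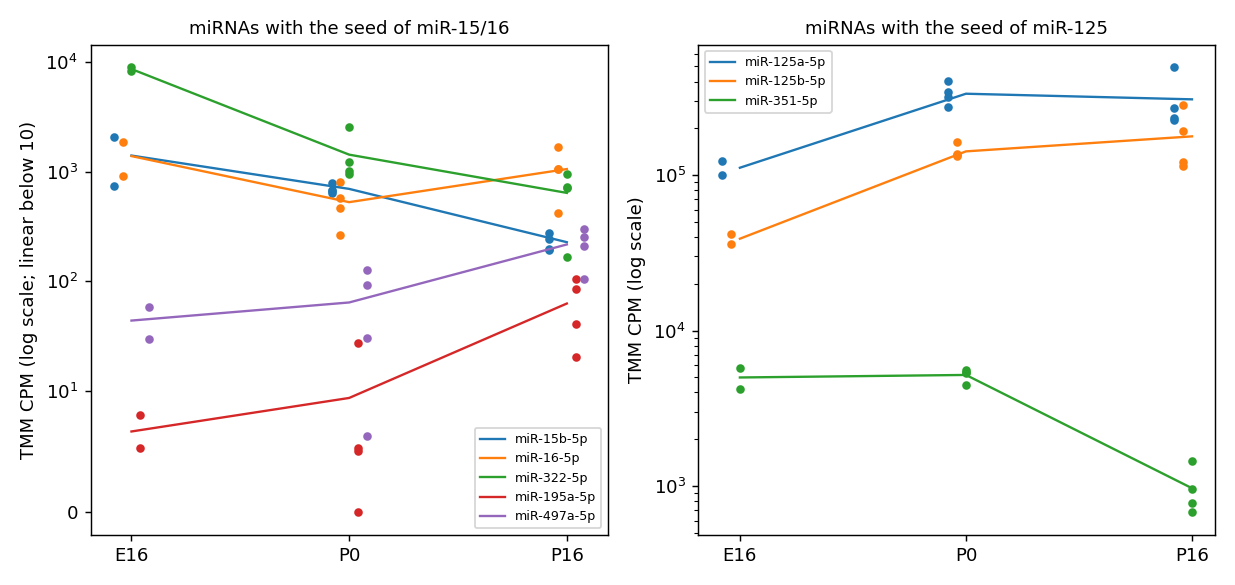
TMM CPM (y axis, log scale; in the left panel linear below 10) at E16, P0 and P16 of miRNAs that share the seed AGCAGCA (left) and CCCUGAG (right); points are libraries and lines join the group means. miR-15b-5p, miR-322-5p and miR-351-5p fell to P16, whereas miR-195a-5p, miR-497a-5p, miR-125a-5p and miR-125b-5p rose.

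The 5p strands of the let-7 family and miR-98 were higher at P16 in 9 of 9 cases, with a median log2 fold change of 1.68. Of these, 3 were called DE, beside 11.8% of all tested miRNAs induced. The Lin28 proteins are known to block let-7 maturation in embryonic cells. As the strands differ in few bases, the split of reads between single members is uncertain. let-7b-5p changed most, from 666 and 923 CPM at E16 to 9136, 8017, 12302 and 18672 at P16 (log2 fold change 3.92, standard error 0.48, edgeR FDR 2.95e-14). let-7c-5p had 3029 and 4352 CPM and 28057, 10528, 32115 and 46683 (log2 fold change 2.99, standard error 0.46, edgeR FDR 1.63e-09). One of its loci lies beside let-7b (chr15:85706603-85707403, plus strand), and all 4 P16 libraries of both lay above E16. let-7d-5p, at 11457 and 11629.7 CPM and 40976, 15347, 43466 and 50010.4, was the third (log2 fold change 1.70, standard error 0.43, edgeR FDR 0.000438). In other members P16 replicate 2 fell below the E16 libraries and ended the call. let-7g-5p had 7632 and 9036 CPM at E16 and 21107, 5089, 33425 and 36061 at P16 (log2 fold change 1.52, FDR 0.00153), and let-7a-5p had 3168 and 4320.0 and 11388, 2679, 14766 and 19069 (log2 fold change 1.68, FDR 0.000431). Without P16 replicate 2, 8 of the 9 were DE, all higher at P16. The median of the 9 was 0.67 for P0 vs E16 and 0.95 for P16 vs P0.

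The 3p strands of the same hairpins were split. Of 9 tested, 2 were induced and 2 repressed, beside 11.8% and 21% of all tested miRNAs. Their median log2 fold change was -0.95, or 0 with bounds. It turned to 0.58 for the 7 with at least 10 counts in every library of E16 or of P16. let-7b-3p rose with its partner, from 374 and 314 CPM to 5903, 6159, 3034 and 2840.1, and here P16 replicate 2 was the highest (log2 fold change 3.70, standard error 0.48, edgeR FDR 7.85e-13). let-7d-3p, as abundant as let-7d-5p, had 10109.6 and 12289 CPM and 33310.1, 29778, 27310.5 and 29813 (log2 fold change 1.42, standard error 0.42, edgeR FDR 0.00330). In contrast let-7c-1-3p, from the let-7c locus on chromosome 16, fell by 1.22 on the log2 scale (FDR 0.0166) and miR-98-3p fell by 1.89 (FDR 0.000785), and neither was called with DESeq2, limma, thinned counts, the GC offset or a minimum of 10 counts. The rise of let-7b-5p and let-7c-5p had begun by birth, with means at P0 of 4017 and 15172 CPM.

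Among the miRNAs that reached 1000 CPM the largest decrease was that of miR-335-5p, which lies in an intron of the paternally expressed gene Mest (chr6:30741299-30741396, plus strand). It had 29000.2 and 28471 CPM at E16, where it was among the 10 most abundant miRNAs, and 1090.3, 256, 334 and 211 at P16 (log2 fold change -5.91, standard error 0.41, edgeR FDR 8.80e-43). Replicate 1 was the highest at P16 and stood apart from the other 3, yet far below both E16 libraries. At P0 its mean was 864 CPM, so that most of the loss had occurred by birth. The other arm, miR-335-3p, had 58 and 96 counts at E16 and at most 2 per library at P16, so that the E16 level was 24.8 times (9.48 to 92.05) as high. The strands of miR-296 and miR-298, neighbours at the imprinted Gnas region of chromosome 2 (chr2:174267047-174267585, minus strand), were repressed in 3 of 4 cases, beside 21% of all tested miRNAs. Among these strands, miR-298-3p had at most 6 counts. miR-296-3p had 2184 and 2169 CPM at E16, 1197 at P0 and 38.5, 47.1, 105 and 48.7 at P16 (log2 fold change -5.18, standard error 0.45, edgeR FDR 6.82e-28), a loss after birth. Its 5p arm was not DE, with overlapping groups and a log2 fold change of -0.37, short of the 1.5-fold limit. miR-298-5p fell from 5111 and 4681 CPM to 595, 431, 1278 and 1371 (log2 fold change -2.42, standard error 0.38, edgeR FDR 4.18e-09).

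The miR-130 and miR-301 family was repressed in 4 of 6 tested strands, beside 21% of all tested miRNAs, with a median of -2.73, or -1.91 with bounds. miR-130b, which lies with miR-301b on chromosome 16 (chr16:17124061-17124496, minus strand), had the largest changes. Its 5p arm had 6284 and 6945 CPM at E16 and 606, 309.6, 249 and 162 at P16 (log2 fold change -4.30, standard error 0.40, edgeR FDR 8.62e-25), and its 3p arm miR-130b-3p 1229.6 and 865 and 49.6, 53.8, 32.8 and 32.5 (log2 fold change -4.60, standard error 0.49, edgeR FDR 5.04e-19). The groups of both arms were widely separated. At P0 miR-130b-5p was still at 4977 CPM. miR-130a-3p, from another locus, fell by 2.19 (FDR 7.34e-07). miR-674-3p, one of the 10 most abundant miRNAs at E16, fell from 16683 and 18321 CPM to 5209, 4241, 2261 and 2791 (log2 fold change -2.27, standard error 0.37, edgeR FDR 2.02e-08). miR-6540-5p had 168 and 89.9 CPM at E16 and 1 count in a single P16 library, so that the E16 level was 73.3 times (12.9 to 2922) as high. Its hairpin lies in an intron of Gap43, a gene of growing axons.

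The largest increase was that of miR-5100, whose hairpin lies in an intron of Mief2 (chr11:60728663-60728726, plus strand). It had 18.7 and 15.9 CPM at E16, 34.2 on average at P0 and 1437, 3224, 1304 and 990.0 at P16, with P16 replicate 2 the highest (log2 fold change 6.62, standard error 0.62, edgeR FDR 8.14e-24). miR-150-5p, best known from mature lymphocytes, had 476 and 826 CPM at E16 and 18172, 24878, 6567 and 6411 at P16 (log2 fold change 4.42, standard error 0.50, edgeR FDR 4.73e-17). Its P16 values formed a high and a low pair, all above E16. The 3p arm, miR-150-3p, had 0 and 1 counts at E16 and 22, 9, 2 and 4 at P16, so that the P16 level was 57.5 times (9.70 to 2332) as high. The sum of the 3 leukocyte markers was 1903 to 2465 CPM at E16 and 6906 to 25477 at P16. Of the other two leukocyte markers, 1 was repressed and 1 was not DE. miR-223-3p, a granulocyte miRNA, fell from 1342 and 1552 CPM to 787, 599, 505 and 398 (log2 fold change -1.33, standard error 0.41, edgeR FDR 0.00485), but by 0.35 with the GC offset and without a call, and miR-142a-3p had 85.5 and 86.3 and 22.0, 0, 0 and 97.4 (log2 fold change -1.60, FDR 0.079).

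Both arms of miR-193b rose, and the whole group of miR-193 and miR-365 was higher at P16 in 5 of 5 tested strands. Of these, 2 were induced, beside 11.8% of all tested miRNAs. miR-193b-5p had 24.1 and 33.5 CPM at E16 and 589, 929, 537 and 536 at P16 (log2 fold change 4.45, standard error 0.58, edgeR FDR 8.17e-13), and miR-193b-3p 32.1 and 74.0 and 198, 552, 308 and 252 (log2 fold change 2.59, standard error 0.56, edgeR FDR 3.69e-05). The abundant risers miR-328-3p, miR-574-3p and miR-455-3p were among the 10 most abundant miRNAs at P16. miR-328-3p had 6824 and 6797 CPM at E16 and 30056, 74291, 47471 and 53029 at P16 (log2 fold change 2.91, standard error 0.46, edgeR FDR 5.73e-09). miR-574-3p, from an intron of Fam114a1, had 4304 and 5245 and 44417, 55209, 27933 and 30373 (log2 fold change 3.05, standard error 0.46, edgeR FDR 1.05e-09), and its 5p arm rose by 2.11. miR-455-3p, known from cartilage, had 4167 and 4706 and 28101, 40266, 23260.1 and 31988 (log2 fold change 2.80, standard error 0.45, edgeR FDR 1.19e-08). Neither strand of the other cartilage miRNA, miR-140, was DE. The sum of the 3 cartilage markers was 6194 to 6732 CPM at E16 and 25043 to 41363 at P16, with none at 0. At P16 this sum was mostly miR-455-3p, whose other arm miR-455-5p was not DE (log2 fold change 0.17). The median of the 4 tested cartilage strands was 0.07. miR-1249-3p rose from 120.3 and 192 CPM to 732, 3009, 1999 and 2134 (log2 fold change 3.64, standard error 0.50, edgeR FDR 8.31e-12).

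The 12 largest increases of miRNAs averaging 100 CPM or more at either age included 4 from scarcer ones. They were those of miR-5620-3p (log2 fold change 4.33), miR-7047-3p (3.79), miR-1224-3p (3.57) in an intron of Vwa5b2 and miR-5128 (3.56) in an intron of Strbp. None of the 4 had more than 16 counts in an E16 library. Entries with a miRBase number over 3000, most of them found by deep sequencing and not conserved, numbered 244 of the tested miRNAs. Of these, 32 were induced and 9 repressed, 13.1% and 3.69%, beside 11.8% and 21% of all tested.

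The miR-183 cluster (chr6:30165918-30169737, minus strand) is expressed in hair cells and needed for their maturation, and a change in the seed of miR-96 causes deafness. Its 3 tested 5p strands were lower at P16, but none was called DE, and with the GC offset the log2 fold changes of miR-183-5p and miR-96-5p were 0.08 and 0.04. miR-183-5p, among the 10 most abundant miRNAs at both ages, had 48380.0 and 53693 CPM at E16 and 31983, 13799, 35162 and 32929 at P16 (log2 fold change -0.84, standard error 0.39, edgeR FDR 0.0679). All P16 values were below E16, with P16 replicate 2 far below the other 3. miR-182-5p had 2876 and 2881 CPM and 2627, 626, 2681 and 1866 (log2 fold change -0.56, FDR 0.238). miR-96-5p was low, with 41 and 46 counts at E16 and 14, 1, 9 and 7 at P16 (log2 fold change -0.91, FDR 0.276). The 3p arms of all 3 hairpins were repressed. miR-183-3p had 663 and 842 CPM at E16 and 198, 175, 144 and 64.9 at P16 (log2 fold change -2.35, standard error 0.44, edgeR FDR 1.33e-06), and miR-96-3p 158 and 196 and 33.0, 0, 13.1 and 48.7 (log2 fold change -2.90, standard error 0.71, edgeR FDR 0.000292). miR-182-3p had 51 and 100 counts at E16 and a single count at P16, so that the E16 level was 97.1 times (17.2 to 3862) as high.

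Epithelial miRNAs were lower at P16 in 12 of 12 tested strands, and 4 were repressed, beside 21% of all tested miRNAs. The miR-200 family, to which miR-429 belongs, maintains epithelial identity. miR-429-3p had 11735 and 18085 CPM at E16 and 5342, 936, 3821 and 4504 at P16 (log2 fold change -2.03, standard error 0.37, edgeR FDR 7.16e-07). It was the main epithelial miRNA by level and was similarly low at P0, at 3383 CPM. miR-203-3p, a miRNA of stratifying epithelia, fell by 2.19 (FDR 1.2e-05), and miR-200a-5p by 1.82 (FDR 0.000301). By limma on quantile-normalized values 1 of the list was repressed. The sum of the 7 epithelial markers was 14467 to 22902 CPM at E16 and 2161 to 7610 at P16.

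The mesenchymal miR-199 and miR-214 strands were repressed in 4 of 4 cases, beside 21% of all tested miRNAs. miR-214-3p, made with miR-199a from Dnm3os on chromosome 1 (chr1:162217814-162223477, plus strand), had 45961 and 44086 CPM at E16 and 11283, 13725, 9300.1 and 9510.3 at P16 (log2 fold change -2.04, standard error 0.38, edgeR FDR 1.13e-06). Its level was still 61941 CPM at P0, so that it fell after birth. miR-199a-5p fell from 323 and 215 CPM to 71.6, 47.1, 45.9 and 24.3 (log2 fold change -2.46, standard error 0.57, edgeR FDR 0.000117).

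Neuronal miRNAs went both ways, with 3 induced and 5 repressed of 18 tested and a median of -1.01, or -0.36 with bounds. All tested miRNAs did so too, with 11.8% induced and 21% repressed. miR-9-3p, from a hairpin known in neural progenitors, had 1002 and 1038 CPM at E16 and 193, 33.7, 65.5 and 32.5 at P16 (log2 fold change -3.60, standard error 0.47, edgeR FDR 1.14e-12), and miR-9-5p fell by 1.5 (FDR 0.00188), or by 0.25 with the GC offset. miR-153-3p, from an intron of Ptprn2, had 213.8 and 308 CPM at E16 and was counted at P16 in replicate 4 alone, with 4 counts (log2 fold change -5.15, standard error 0.80, edgeR FDR 2.60e-09). The abundant brain miRNA miR-128-3p fell by 1.77 (FDR 0.00016). miR-124-3p, a hallmark of neurons, fell less. It had 1304 and 769.9 CPM at E16 and 435, 438, 603 and 479 at P16 (log2 fold change -1.08, FDR 0.0295). Its level was lowest at P0, at 126 CPM. In the other direction, miR-138-5p rose from 37.4 and 44.0 CPM to 121, 60.6, 203 and 235 (log2 fold change 1.90, standard error 0.68, edgeR FDR 0.0183). The median of the list shrank to -0.07 with the GC offset. The sum of the 6 neuronal markers was 3094 to 3470 CPM at E16 and 1003 to 1724 at P16.

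miR-338, a miRNA of myelinating glia, rose on both arms. The other 2 of the 4 tested strands of this list, both of miR-219, were lower at P16 but not DE. They had 3 counts or fewer in every library of at least 1 group. miR-338-3p, in an intron of Aatk (chr11:120014765-120014862, minus strand), had 32.1 and 12.3 CPM at E16 and 529, 256, 478 and 471 at P16 (log2 fold change 4.31, standard error 0.65, edgeR FDR 1.05e-09). miR-338-5p had 32.1 and 30.0 and 754, 363, 832 and 698 (log2 fold change 4.40, standard error 0.60, edgeR FDR 8.00e-12). With a mean of 33.4 CPM at P0, the rise of the 3p arm came after birth. miR-1a-3p of striated muscle had 430.4 and 479 CPM at E16 and 4345, 922, 4142 and 2337 at P16 (log2 fold change 2.69, standard error 0.46, edgeR FDR 9.07e-08). Among the 5 muscle markers that were listed, 2 were at 0 in all 6 libraries, among them miR-133a-3p, which is made from the same loci as miR-1a-3p, and the sum of the list was 465 to 557 CPM at E16 and 949 to 4372 at P16. The part of muscle tissue in this rise was not tested. The 2 red cell markers in the data summed to 10.7 and 22.9 CPM at E16 and were at 0 at P16. A P16 count of 0 allows up to 16.5 to 24.3 CPM, so that these values cannot show a fall. Of the 3 tested strands of the wider red cell list, 2 were repressed and 1 was higher at P16. The list median was -3.70, or 0 with bounds. Of the 4 tested strands of miR-143 and miR-145, known from smooth muscle, 1 was induced. The endothelial miR-126a-3p had 5929 and 6367 CPM and 7522, 1770.3, 3493 and 2994 and was not DE (log2 fold change -0.64, FDR 0.167).

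Of the 75 tested strands of imprinted miRNAs from the Dlk1-Dio3 domain on chromosome 12, which are expressed from the maternal chromosome, 30 were repressed and 5 induced. Over all tested miRNAs, 21% were repressed and 11.8% induced. Of the 53 tested strands of the miR-379-410 cluster, 23 were repressed and 3 induced, with a median of -1.51, or -0.80 with bounds. With the GC offset 13 of 49 were repressed and the median was -0.62. Of the 22 miRNAs of the Rtl1-antisense and Meg3 side, 7 were repressed and 2 induced. miR-323-3p had 2294 and 2452 CPM at E16 and 248, 404, 282 and 203 at P16 (log2 fold change -3.06, standard error 0.40, edgeR FDR 8.25e-13), and miR-409-3p had 2061 and 2533 and 215, 316, 288 and 211 (log2 fold change -3.15, standard error 0.40, edgeR FDR 2.42e-13). Both were still high at P0, at 1564 and 1357 CPM. miR-369-3p, with 599 and 795 CPM and 49.6, 33.7, 45.9 and 0, had fallen by birth (log2 fold change -4.35, standard error 0.55, edgeR FDR 9.20e-14), and so had miR-376c-3p, which fell by 3.71 (FDR 1.34e-12). miR-381-3p had 21 and 32 counts at E16 and at most 1 per library at P16, so that the E16 level was 11.4 times (3.68 to 56.9) as high.

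Within the same domain some strands rose. miR-382-5p had 1596 and 1779 CPM at E16 and 4345, 1905, 8625 and 9291 at P16 (log2 fold change 1.84, standard error 0.43, edgeR FDR 0.000125), and miR-667-3p 663 and 743 and 881, 3985, 2491 and 2637 (log2 fold change 1.83, standard error 0.43, edgeR FDR 0.000180). In both, 1 P16 library lay close to E16, replicate 2 for miR-382-5p and replicate 1 for miR-667-3p. miR-433-3p rose from 152 and 136 CPM to 264, 895, 636 and 503.1 (log2 fold change 1.99, standard error 0.49, edgeR FDR 0.000289) and miR-770-3p, from an exon of Meg3, from 77.5 and 52.9 to 176, 350.0, 374 and 495 (log2 fold change 2.41, standard error 0.54, edgeR FDR 5.55e-05). For the miR-379-410 cluster the median log2 fold change was -1.66 for P0 vs E16 and 0.25 for P16 vs P0.

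**Figure D5:**
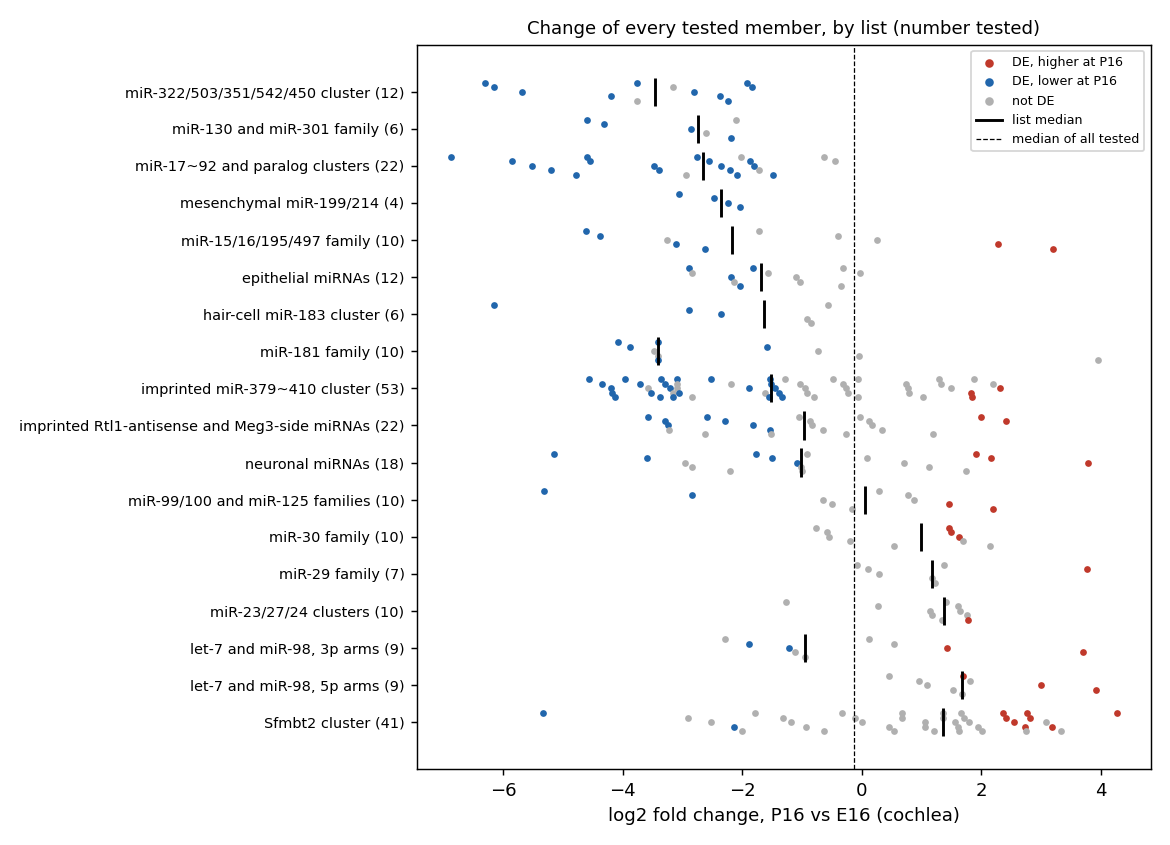
Log2 fold change (P16 vs E16, x axis) of every tested member of 18 of the lists; each point is 1 miRNA, coloured by its call, thick bars are list medians and the dashed line is the median of all 823 tested miRNAs (-0.13). The X-linked miR-322 cluster has a median of -3.46 and the miR-17-92 list of -2.66. Those of the let-7 5p strands and of the Sfmbt2 list, which was matched by name, are 1.68 and 1.35.

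The Sfmbt2 list was matched by name to miRNAs of the Sfmbt2 cluster, a rodent-specific group in many near-identical copies, and not by locus. The hairpins of its members miR-466k and miR-669n lie elsewhere, on chromosome 3. In this list 8 of 41 tested members were induced and 2 repressed, with a median of 1.35, or 0.67 with bounds. Counts of its members are uncertain, as reads can match several copies. The most abundant, miR-466i-5p, had 2002 and 1845 CPM at E16 and 14196, 13644, 10250.4 and 15726 at P16 (log2 fold change 2.81, standard error 0.45, edgeR FDR 8.64e-09). With library totals 6 members were induced and 6 repressed. In the main fit 11.8% of all tested miRNAs were induced and 21% repressed. Among the smaller lists, the miR-30 family had 3 induced of 10, miR-30a-3p, miR-30c-1-3p and miR-30c-2-3p, and 0 with library totals, while miR-30c-5p was at 13296 and 15527 CPM and 13789, 10453, 5322 and 4317 and not DE (FDR 0.0917). In the miR-23/27/24 clusters 9 of 10 strands were higher and 1, miR-23b-5p, was DE, or 4 without P16 replicate 2. miR-24-3p, with 8925 and 9401 CPM at E16 and 27192, 9269, 30443 and 30462 at P16, overlapped through P16 replicate 2 alone (log2 fold change 1.41, FDR 0.0033). The p53-induced miR-34a-5p rose from 174 and 196 CPM to 732, 639, 1324 and 925 (log2 fold change 2.29, standard error 0.49, edgeR FDR 2.50e-05), and miR-204-3p, from an intron of Trpm3, from 211 and 264 to 1151, 1158, 1036 and 1177 (log2 fold change 2.24, standard error 0.46, edgeR FDR 1.15e-05).

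The miR-181 family was repressed in 5 of 10 strands, beside 21% of all tested miRNAs, or in 2 with the GC offset. miR-181b-5p had 313 and 317 CPM at E16 and 27.5, 20.2, 59.0 and 8.11 at P16 (log2 fold change -3.40, standard error 0.57, edgeR FDR 3.04e-08). Its most abundant member miR-181a-5p, with the same seed, had 1839 and 1860.5 and 1470.3, 1838, 2006 and 1834 (log2 fold change -0.05, FDR 0.931). For miR-29a-3p the P16 libraries spanned 1129, 525, 203 and 122 CPM around the 465 and 469 CPM of E16, so that no change was detectable at this spread (log2 fold change 0.09, standard error 0.46, edgeR FDR 0.888). Of the 7 tested miR-29 strands 1 was induced, miR-29b-2-5p, and the list had a median of -2.83 for P0 vs E16 and 2.76 for P16 vs P0. miR-191-5p, with 17795 and 17574 CPM and 32297, 17212, 14019 and 11044, was not DE either (log2 fold change 0.08, FDR 0.891). Of the 4 tested strands of miR-192 and miR-194, 2 were repressed, among them miR-194-5p at -2.01 (FDR 6.86e-06). In the inflammation-linked list miR-21a-5p fell by 1.54 (FDR 0.000914), the only DE member of 5, and by 0.43 with the GC offset. The families of miR-26, of miR-148 and miR-152, and of miR-191 and miR-425 each had 1 repressed member, and those of miR-10 and miR-196 and of miR-221 and miR-222 had none DE.

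Genomic clusters were built from hairpins on 1 strand with neighbours within 10 kb. In 42 clusters with at least 2 hairpins and 2 tested strands, 218 miRNAs were tested. At least 2 members were DE in 20 of the clusters. In 18 of these 20 the DE members all had 1 direction, 14 downward and 4 upward, and 2, both in the imprinted domain, were mixed. Of all 270 DE miRNAs 173 were repressed, so that part of this agreement is given by that share alone. The 4 induced clusters were those of let-7b and let-7c-2, of let-7d, let-7f-1 and let-7a-1, of miR-497a and miR-195a, and of miR-193b and miR-365. Members are strands, and those made from several loci, such as let-7c-5p, were left out. The cluster of miR-99a and let-7c-1 thus counts as downward without the induced let-7c-5p. In the clusters of let-7b, let-7d, miR-193b, miR-214 and miR-130b, the DE members were the 2 arms of 1 hairpin. There the shared direction is that of arms, not of neighbouring hairpins. For 221 hairpins both arms were tested. Both arms were DE in 36, in the same direction in 36 of 36 (27 repressed, 9 induced), and 1 arm was DE in 92. The log2 fold changes of the 2 arms had the same sign in 159 of 221 hairpins, with a Pearson correlation across hairpins of 0.59, a description over points that share libraries. Among the 53 hairpins that reached 100 CPM on both arms it was 0.67.

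Of the 106 tested miRNAs named here 92 were DE, and 65 of these were DE in the same direction under each alternative that was run for them. Some of the others rested on 1 library. Without E16 replicate 1, let-7d-3p (FDR 0.131), miR-124-3p (0.336), miR-138-5p (0.168), miR-20b-5p (0.208), miR-23b-5p (0.0513), miR-30a-3p (0.118) and miR-30c-1-3p (0.157) were also no longer DE by edgeR. Without E16 replicate 2 this held for let-7c-1-3p (FDR 0.203), let-7d-3p (0.0613), miR-106b-5p (0.246), miR-21a-5p (0.129), miR-223-3p (0.0915), miR-29b-2-5p (0.073), miR-381-3p (0.0684), miR-542-5p (0.0581), miR-138-5p (0.129), miR-23b-5p (0.0915) and the 3 strands of the miR-30 family (0.0799 to 0.322). Without P16 replicate 2 the FDR of miR-20b-5p was 0.0612. Without replicate 3 or 4 of P16 miR-138-5p (0.0779 and 0.0636) and miR-30c-1-3p (0.0628 and 0.0514) were not DE, and without replicate 3 neither was let-7c-1-3p (0.0614). miR-298-3p lost its call without any of the 6 libraries in turn (0.0586 to 0.104).

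The P0 libraries show different courses of the lists. The median log2 fold change of the mesenchymal miR-199 and miR-214 strands was -1.02 for P0 vs E16 and -1.68 for P16 vs P0, and that of the X-linked miR-322 cluster -2.44 and -1.66. Epithelial miRNAs had medians of -1.72 and -0.27, and the hair-cell cluster of -1.32 and 0.07. Of the 3 repressed strands of the hair-cell cluster, 3 were lower at P0 than at E16 and 2 fell from P0 to P16, by edgeR FDR under 0.05. The 10 strands of the miR-23/27/24 clusters had medians of -0.21 and 1.90. All of these share the E16 or the P16 libraries with the main comparison and are given as a description. The single miRNAs that moved mainly after birth included miR-338-3p, miR-5100 and miR-34a-5p, at 98.4 CPM at P0, among the induced. Among the repressed they were miR-214-3p, miR-296-3p, miR-92b-3p and miR-351-5p.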

How the data were processed

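Small RNA of the cochlear sensory epithelium was sequenced on an Illumina HiSeq2500 as 50-base single-end reads. The authors deposited 1 table of raw read counts per mature miRNA, not normalized, with 1 column per library. The submitters' processing notes name mm10, Bowtie2 2.2.5 and DESeq2, whereas the methods name Bowtie and MirGeneDB, although the table uses miRBase names. How reads that match several miRNAs were counted is not given in the sources used here. Depth and the CPM of 1 count are given with the results. Intervals and floors cover counting error only.

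Groups came from the labels. Counts of the 10 cochlea libraries were normalized (TMM) and fitted with edgeR 4.0.16 in R 4.3.3, and P16 was contrasted with E16 (quasi-likelihood F test, Benjamini-Hochberg FDR over 823 miRNAs). Levels are TMM CPM, and errors of log2 fold changes are standard errors. The code was tested on simulated data. DESeq2 1.42.0, limma 3.58.1 and other filters, scalings and sample sets were alternatives. Sequences and clusters are from RefSeq (GRCm38.p6) and host genes from GENCODE M21 (GRCm38). The host gene of 1 miRNA is not reported here.

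Members and lists were chosen with earlier results of these data known. Named were the 12 largest increases and decreases of miRNAs averaging 100 CPM or more at either age, the 10 most abundant miRNAs of each age, miRNAs of the study's text, list members of at least 100 CPM (as examples) and both arms of named hairpins. Also named, after their values were seen, were miR-15a-3p, miR-195a-5p, miR-92b-3p, miR-106b-5p, miR-298, miR-142a-3p, miR-29b-2-5p and list members under that level.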

Additional observations from a re-analysis of the deposited data

Results flagged for a closer look

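In 13 of the 106 named miRNAs, 1 P16 library lay far from the other 3 by Dixon's test at the 95% level. Chance alone does this in about 1 of 20 groups of continuous values. That rate does not hold for 6 of the 13, where the other 3 libraries were at 0. No explanation was tested. P16 replicate 2 was the outlying library in 6 of the 13, including miR-182-3p, which had 1 count. It was high for miR-125a-5p, with 496932 CPM against 227581 to 271002 in the others, for miR-193b-5p, with 929 against 536 to 589, and for miR-128-3p, with 363 against 292 to 303. It was low for miR-183-5p, the main hair-cell miRNA, with 13799 CPM against 31983 to 35162, and for miR-24-3p, with 9269 against 27192 to 30462. In P16 replicate 1 miR-335-5p was high, with 1090.3 CPM against 211 to 334, and in replicate 3 miR-296-3p, with 105 against 38.5 to 48.7.

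The remaining 6 values came from few counts, the other 3 libraries being at 0. They were miR-153-3p with 32.5 CPM and miR-503-5p with 16.2 CPM in replicate 4, miR-16-2-3p with 22.0 CPM and miR-15a-3p with 11.0 CPM in replicate 1, miR-6540-5p with 6.55 CPM in replicate 3 and miR-182-3p with 6.73 CPM in replicate 2.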

How the results depend on the processing

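Across alternatives that kept all libraries, the number of DE miRNAs was 203 to 316, against 270. Leaving out 1 library gave 168 to 289 DE miRNAs, 56 to 113 induced and 112 to 179 repressed, the lowest without E16 replicate 2; without E16 replicate 1, 64 were induced. The induced share of DE miRNAs was 35.9%, 23.6% with library totals (72 of 305), 43.4% with DESeq2 (109 of 251), 43.5% with limma (103 of 237), 44.3% without the criterion on overlap (140 of 316) and 46.0% with the GC offset (99 of 215). Of the 92 named DE miRNAs none changed direction and 27 lost their call in at least 1 alternative. miR-125a-5p had no change by limma, because quantile normalization sets the most abundant miRNA of each library to 1 value. Of the 14 named miRNAs that were not DE, 9 were called in some alternative.

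Replicate numbers gave no pairing. The deviations of same-numbered libraries correlated at 0.005 and -0.01, and with the replicate block 203 miRNAs were DE, 73 induced and 130 repressed.

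Signs changed for miRNAs that were not DE, and the cause was not tested. The log2 fold change of miR-16-5p turned to 0.197 with limma, 0.0702 with at least 10 counts and 0.285 with the GC offset, and ranged from -0.923 to 0.154 when 1 library was left out (0.154 without E16 replicate 2). That of miR-181a-5p turned to 0.0183 with DESeq2, 0.0189 with RLE factors, 0.586 with limma, 0.445 with at least 10 counts, 0.159 with thinned counts, 0.526 with the GC offset and 0.00461 with RefSeq-matched miRNAs alone, and ranged from -0.231 to 0.0329 (without P16 replicate 1). That of miR-191-5p turned to -0.447 with library totals and -0.200 with limma, and ranged from -0.328 (without P16 replicate 1) to 0.26, with -0.0283 without E16 replicate 1. That of miR-29a-3p turned to -0.464 with library totals and -0.00136 with thinned counts, and ranged from -0.711 (without P16 replicate 1) to 0.411, with -0.0303 without E16 replicate 1. With the GC offset, miR-183-5p was at 0.082, miR-96-5p at 0.0427 and miR-30c-5p at 0.0589, and with at least 10 counts miR-99b-5p was at 0.0163. The GC offset and its RefSeq-matched reference were added after seeing the data. P16 depth limits falls to low levels, as a P16 count of 0 allows up to 16.5 to 24.3 CPM.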
